A study of Mus musculus with 2 samples.

Results

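The genes of bile acid synthesis and conjugation were examined in expression profiles of livers whose labels give the mice as apolipoprotein E-deficient. The members are Cyp7a1, Cyp8b1, Cyp27a1, Cyp7b1, Hsd3b7, Akr1d1, Amacr, Acox2, Slc27a5 and Baat, chosen by name for their place in the pathway and read through every probe set whose platform annotation names that gene alone. They comprised 10 genes and 14 probe sets, of 12393 genes and 22690 probe sets on the array. The diets compared had 1 array each. Per the labels and design text, both were given for 4 weeks to female mice, 2 months old, homozygous for the apoE knockout on a C57BL/6J background. One diet was Teklad Mouse/Rat chow with olive oil at 10% (w/w), the other the same chow with 10% (w/w) of an olive oil enriched in maslinic acid, which is a triterpene from olives. The study used 12 mice, 6 per diet, and the sources used here do not say whether an array carries RNA of 1 mouse or of a pool. With 1 array a diet, differences have no replicate check, and no p-value or standard error is given.

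Hepatocytes dispose of cholesterol by turning it into bile acids. In the neutral pathway Cyp7a1 hydroxylates the sterol ring first, and in the acidic pathway Cyp27a1 oxidises the side chain first and Cyp7b1 then acts on the resulting oxysterol. Hsd3b7 and Akr1d1 complete the ring, Cyp8b1 adds the hydroxyl group that leads to cholic acid, Amacr and Acox2 prepare the side chain for shortening in peroxisomes, and Slc27a5 and Baat activate the acid and join it to an amino acid, mainly taurine in mice. Bile acids returning to the liver repress Cyp7a1 and Cyp8b1 through the nuclear receptor Nr1h4 (FXR) and the corepressor Nr0b2 (SHP).

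Both arrays are labelled as apoE knockouts, yet Apoe read 407.7 with olive oil and 7630 with maslinic acid, 18.7-fold apart on its 1 probe set, so 'with olive oil' and 'with maslinic acid' stand throughout for the arrays as labelled. With 1 array each, a difference of diet and a difference of genotype between the arrays cannot be told apart. Repeat probe sets of 1 gene share the hybridisation and show technical spread only: over the 1814 genes with several measured probe sets, the SD of the log2 ratio within a gene was 0.23. A gene counted as measured where its brightest probe set reached a deposited signal of 80.0 on at least 1 array, and all 10 bile acid genes did. Signals of different probe sets are not compared with each other, since probes differ in response.

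Most members read alike on both arrays, and Akr1d1 was furthest apart by the brighter of its 2 probe sets. The genes were each represented by their brightest probe set, and 6 were higher and 4 lower with maslinic acid, where 48.0% of measured genes were higher. Their median log2 ratio (maslinic acid over olive oil) was 0.03 against -0.0098 over the 5911 genes measured. None of the 10 was 1.5-fold apart in either direction, where 3.05% of measured genes were, and none was 2-fold apart, where 0.609% were. At a smaller size of 1.2-fold, chosen after the values were seen, 1 member (Akr1d1) was apart, against 19.0% of measured genes. The dimmer Akr1d1 probe set had a log2 ratio of 0.04, and with probe sets averaged 0 members were 1.2-fold apart. Of the 10 log2 ratios, 9 were smaller than the SD between probe sets of 1 gene. Most of the array lay under that SD too, since only 25.6% of measured genes had a log2 ratio of at least 0.22 in size. The median absolute log2 ratio was 0.048 over the members and 0.122 over all measured genes. These medians are not matched for signal, and ratios spread less among brighter probe sets. The central 95% of the 500 probe sets of most similar signal ran from -0.51 to 0.54 for Cyp7a1 1422100_at. For the brighter Hsd3b7 it ran from -0.29 to 0.22. With 3.05% of measured genes 1.5-fold apart, a count of 0 members is close to what the whole array shows.

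Regulatory sequence is shown for a pair of members, Cyp8b1 as a target of bile acid feedback and Akr1d1 as the member furthest apart on the arrays, the latter chosen after its value was seen. The RefSeq promoter table (GRCm38.p6) matched 5 of the 10 members, namely Cyp8b1, Cyp27a1, Hsd3b7, Akr1d1 and Acox2, and did not match Cyp7a1, Cyp7b1, Baat, Slc27a5 and Amacr. The 250 bases before the start site are printed in the direction of the gene, with motif matches in capitals. Cyp8b1 is on the minus strand at chr9:121916306-121916555 and Akr1d1 on the plus strand at chr6:37529923-37530172.
Cyp8b1: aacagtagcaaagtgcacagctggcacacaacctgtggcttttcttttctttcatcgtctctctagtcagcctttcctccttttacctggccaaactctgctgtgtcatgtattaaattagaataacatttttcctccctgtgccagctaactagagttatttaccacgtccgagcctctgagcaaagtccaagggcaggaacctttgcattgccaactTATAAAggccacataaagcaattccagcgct
Akr1d1: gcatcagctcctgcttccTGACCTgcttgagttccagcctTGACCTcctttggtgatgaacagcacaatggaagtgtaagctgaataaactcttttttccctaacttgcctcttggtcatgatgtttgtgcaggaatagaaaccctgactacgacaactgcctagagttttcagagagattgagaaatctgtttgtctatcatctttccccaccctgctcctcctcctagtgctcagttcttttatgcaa
Motifs were searched on both strands: the LRH-1 site CAAGGTCA, the nuclear receptor element AGGTCA that lies within it, the HNF1 core GTTAAT and the TATA box TATAAA. Cyp8b1 held 1 TATA box, beginning 31 bases before the start, a motif found in 12.4% of all 32851 such windows. In Akr1d1 AGGTCA occurred on the opposite strand, as TGACCT, beginning 232 and 210 bases before the start, and 14.0% of all windows hold it. The windows of Cyp27a1, Hsd3b7 and Acox2 held none of these letters. CAAGGTCA, present in 1.33% of all windows, and GTTAAT, present in 6.43%, were in none of the members' windows. These matches are descriptions of letters and were not set against any measured binding.

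The enzyme that opens the neutral pathway read nearly the same under both diets by its brighter probe set. Cyp7a1, the rate-limiting step of the pathway, had a signal of 676.2 with olive oil and 662.4 with maslinic acid with its brighter probe set, 1438743_at, a log2 ratio of -0.03. A difference at least this large was found in 86.7% of measured genes. Its dimmer probe set, 1422100_at, read 121.9 and 146.2, a log2 ratio of 0.26, so the probe sets of Cyp7a1 differed in sign and lay 0.29 apart. The range between probe sets was at least this wide in 37.1% of genes with several measured probe sets. Both values lay inside the range that held the central 95% of the 500 probe sets of most similar signal, which ran from -0.35 to 0.47 for the brighter and from -0.51 to 0.54 for the dimmer.

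Cyp8b1, which sets the proportion of cholic acid in the pool, also read alike. Its signals were 1488.9 with olive oil and 1532.9 with maslinic acid, a log2 ratio of 0.04 on its only probe set, 1449309_at. The log2 ratio of Cyp8b1 exceeded that of the brighter Cyp7a1 probe set by 0.072, less than the SD between probe sets of 1 gene. It lay below that of the dimmer Cyp7a1 probe set, 0.26.

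**Figure D1:**
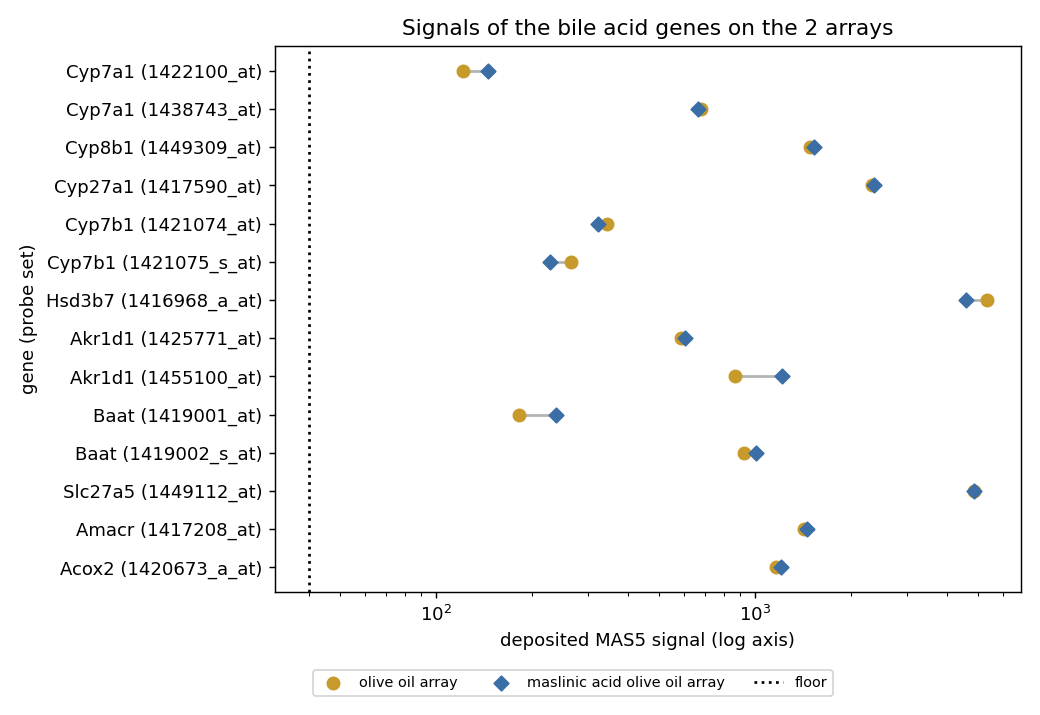
Deposited MAS5 signal (log axis) of each of the 14 probe sets of the bile acid genes, with a circle for the olive oil array, a diamond for the maslinic acid array and a dotted line at the floor of 40.0. Every probe set lies above the floor on both arrays, and the widest gap is that of Akr1d1 1455100_at, from 868.8 to 1214.2.

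The acidic pathway showed small differences in opposite directions. Cyp27a1, a mitochondrial P450 that also serves side chain oxidation in the neutral pathway, read 2334.1 with olive oil and 2371.8 with maslinic acid, a log2 ratio of 0.02. Cyp7b1, an oxysterol hydroxylase whose hepatic expression is known to be higher in male than in female mice, read 343.3 and 322.2 with probe set 1421074_at, a log2 ratio of -0.09. Its other probe set, 1421075_s_at, read 265.5 and 228.2, a log2 ratio of -0.22. Cyp7b1 was therefore lower with maslinic acid with both probe sets, and both ratios were smaller than the SD between probe sets of 1 gene. The suffix _s_at marks a probe set that can read several transcripts.

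The enzymes that finish the steroid ring held, by brightest probe set, the members furthest apart in each direction. Hsd3b7, the oxidoreductase that follows ring hydroxylation in both pathways, read 5325.6 with olive oil and 4594.2 with maslinic acid, 1.16-fold lower with a log2 ratio of -0.21. The 500 probe sets of most similar signal had a median log2 ratio of -0.056 and a central range from -0.29 to 0.22, and of the 50 brightest genes 47 were lower with maslinic acid. The part of signal strength in the Hsd3b7 value was not tested. Under the scaling alternatives the log2 ratio of Hsd3b7 ran from -0.22 to -0.15.

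Akr1d1, the reductase that gives bile acids their bent ring system, was the member furthest apart. Probe set 1455100_at read 868.8 with olive oil and 1214.2 with maslinic acid, 1.40-fold higher with a log2 ratio of 0.48. A difference at least as large was found in 5.21% of measured genes, and this was the only one of the 14 probe sets outside the central range of its 500 neighbours in signal, which ran from -0.41 to 0.38. Such a range holds 95% of the neighbours by definition, so 1 of 14 outside is near the share that the range itself sets. Probe set 1425771_at of the same gene read 589.0 and 606.5, a log2 ratio of 0.04. Both probe sets were higher with maslinic acid, but they lay 0.44 apart, a range reached by 20.0% of genes with several measured probe sets. With their mean in place of the brighter one, the log2 ratio of Akr1d1 was 0.26. The log2 ratio of Hsd3b7 lay 0.70 below that of Akr1d1 with the brighter probe set.

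**Figure D2:**
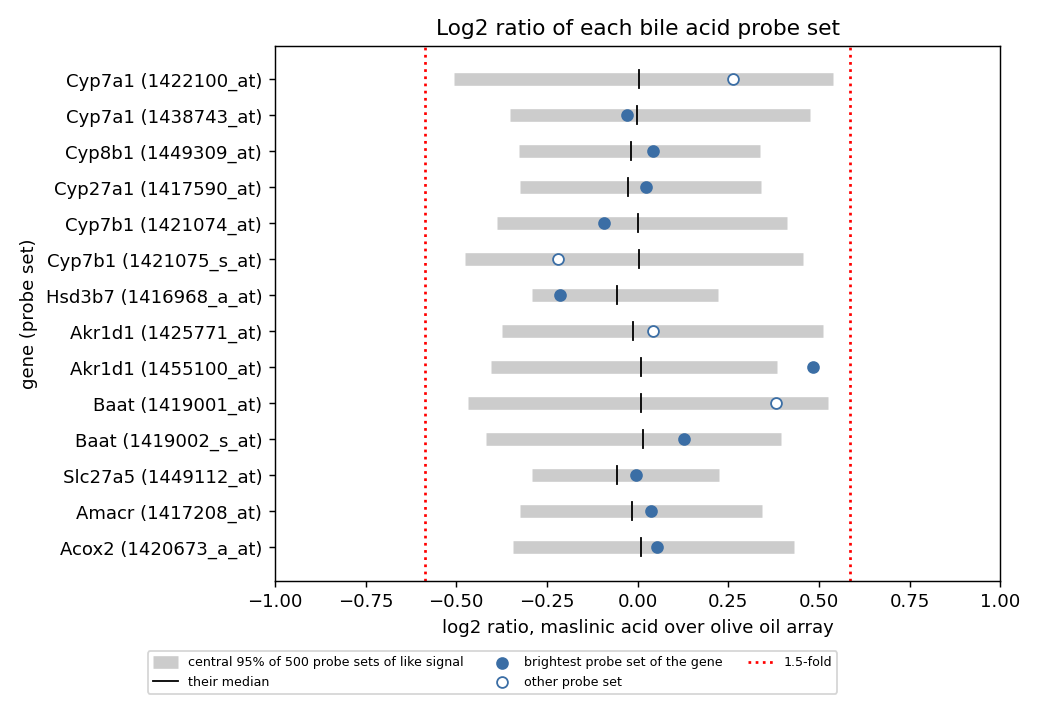
Log2 ratio of maslinic acid over olive oil for each bile acid probe set, filled where it is the gene's brightest. Grey bars span the central 95% of the 500 measured probe sets of most similar signal, black ticks mark their median and dotted lines mark 1.5-fold. Of the 14 points 13 lie inside their grey bar, near the 95% that a bar holds by definition, and Akr1d1 1455100_at, at 0.48, lies outside.

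Side chain enzymes of the peroxisome read alike under both diets. Amacr, the racemase that turns the side chain into the form the oxidase accepts, read 1423.1 with olive oil and 1459.4 with maslinic acid, a log2 ratio of 0.04. Acox2, the branched-chain acyl-CoA oxidase that begins side chain shortening, read 1165.0 and 1208.7, a log2 ratio of 0.05 on a probe set with the suffix _a_at, which marks several transcripts of 1 gene. The pair differed from each other by 0.017 in log2 ratio.

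The last steps, activation and conjugation, differed little by brightest probe set. Slc27a5, the bile acid CoA ligase of the liver, read 4870.7 with olive oil and 4859.0 with maslinic acid. Its log2 ratio of -0.0035 was the smallest of the members and turned positive, up to 0.06, with quantile or loess scaling. Its neighbours in signal had a median of -0.056. Baat, the amino acid transferase that makes taurine conjugates, read 925.0 and 1009.9 with probe set 1419002_s_at, a log2 ratio of 0.13. Its dimmer probe set, 1419001_at, read 182.4 and 237.8, 1.30-fold higher with a log2 ratio of 0.38, which 8.81% of measured genes matched or exceeded in size. Baat was thus higher with maslinic acid with both probe sets, by amounts 0.26 apart in log2 ratio.

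Of the 4 members with several probe sets, Cyp7b1, Akr1d1 and Baat kept 1 direction and Cyp7a1 did not. Counted by probe set, with the repeat probe sets of these 4 genes counted separately, 9 of 14 were higher with maslinic acid and 5 lower. Of all measured genes 48.0% were higher. A difference of less than 10% was found for 9 of 14. Most measured genes also differed by less, since only 48.8% were as far apart as Baat 1419002_s_at, at 9.18%. Relative to the median of their neighbours in signal, 10 of 14 lay higher, where a median by definition has as many neighbours above as below. All members stood clear of the floor of 40.0 under which signals carry no order. The lowest signal of any probe set, 121.9 for Cyp7a1, was 3.05 times the floor.

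**Figure D3:**
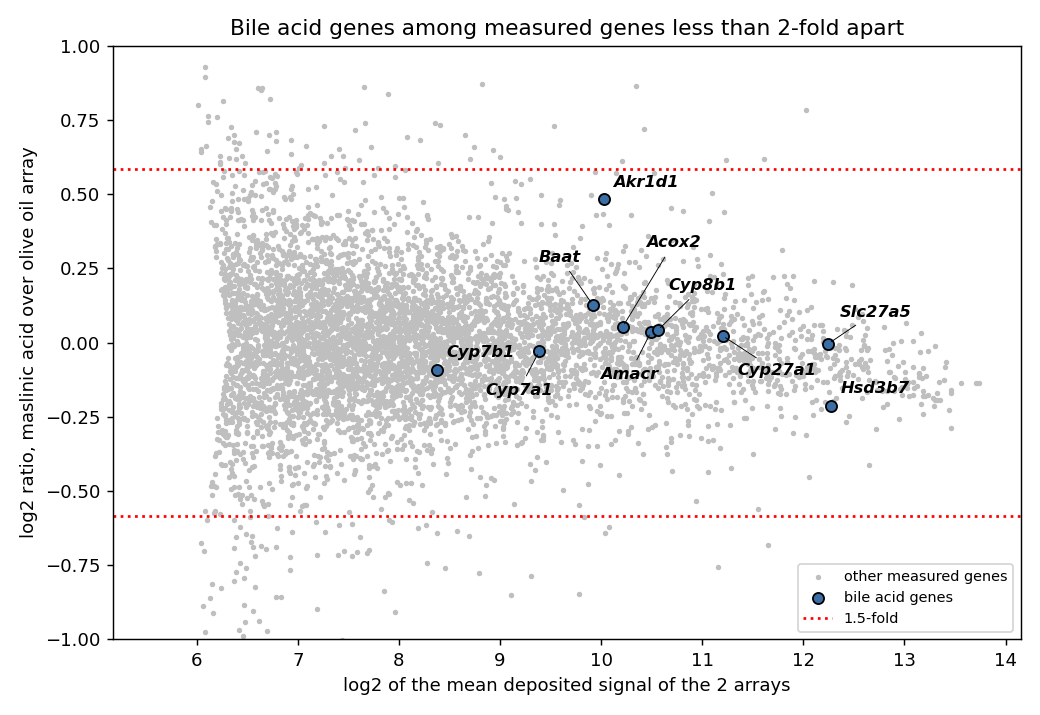
Log2 ratio of maslinic acid over olive oil against the log2 of the mean signal for measured genes, with the bile acid genes in blue and dotted lines at 1.5-fold. The axis runs from -1 to 1, so the 36 genes at least 2-fold apart lie at or beyond its edges. The bile acid genes lie between -0.21 (Hsd3b7) and 0.48 (Akr1d1).

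Further enzymes and carriers of the pathway outside the members were followed as a list of 15, of which 13 were on the array and 10 measured. In this list 3 genes were higher and 7 lower with maslinic acid, where 48.0% of all measured genes were higher. The list's median was -0.018, and it turned positive, up to 0.05, with quantile or loess scaling. Cyp39a1, a microsomal hydroxylase that feeds brain-derived oxysterol into bile acids, was furthest apart at 224.7 and 147.2, 1.53-fold lower, where 1.57% of measured genes were at least 1.5-fold lower. Cyp2c70, which makes the muricholic acids of mice, had a log2 ratio of -0.11 and Akr1c6 of -0.10. Hsd17b4, the peroxisomal enzyme that follows Acox2, had a log2 ratio of 0.19 with its brighter probe set and -0.13 with the other. Cyp46a1, Ch25h and Star lay under the minimum signal.

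Regulators of the members read within 1.5-fold by their brightest probe sets, where only 3.05% of all measured genes were at least 1.5-fold apart. Of 19 listed, 18 were on the array and 17 measured, 8 higher and 9 lower with maslinic acid, and the median was -0.0098. The bile acid receptor Nr1h4 read 742.0 with olive oil and 766.4 with maslinic acid, and its target Nr0b2 485.6 and 430.5, log2 ratios of 0.05 and -0.17, both named after their values were seen. The regulators furthest apart were Ppara, the fatty acid receptor, at -0.38, Cebpb at -0.33, the growth factor receptor gene Fgfr4, which relays the intestinal signal that represses Cyp7a1, at 0.32, and the oxysterol receptor gene Nr1h3 (LXR alpha) at 0.29. Nr5a2 (LRH-1), an activator of Cyp7a1 and Cyp8b1, had a log2 ratio of -0.011 with its brightest probe set, 0.05 with a dimmer one and -0.81 with probe set 1420410_at, at 310.2 and 176.9. Hnf4a, another activator of both genes, had a log2 ratio of -0.22 with its brightest probe set and 0.64 with probe set 1427000_at, at 909.0 and 1417.6. Both disagreements were picked out after the values were seen.

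Of 18 bile acid and biliary transporters 14 were on the array and 10 measured. Of these 10, 3 were higher and 7 lower, where 48.0% of all measured genes were higher. The median was -0.092, and -0.0093 with no minimum signal. The canalicular pumps Abcc2 and Abcb11 had log2 ratios of -0.30 and -0.14, the sterol transporter gene Abcg5 of -0.26 and the uptake carrier gene Slco1a4 of 0.14. By brightest probe set, none of the regulators or transporters was 1.5-fold apart, close to the 3.05% of all measured genes that were.

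**Figure D4:**
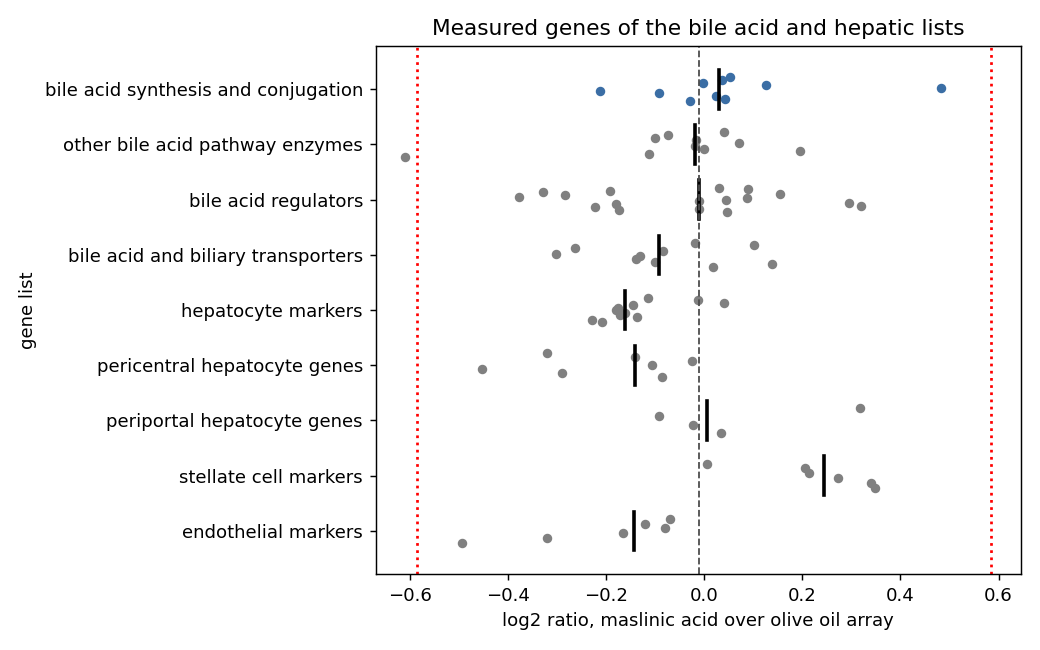
Log2 ratio of maslinic acid over olive oil for the measured genes of the bile acid lists and of hepatic cell type lists, 1 point per gene, with a black bar at each list's median, a dashed line at the median of all measured genes and dotted lines at 1.5-fold. The bile acid synthesis and conjugation genes centre on 0.03 and the hepatocyte markers on -0.16, and the lists are not matched for signal.

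Cell type markers were read beside the members, since in whole liver fewer cells of a type and less RNA per cell cannot be told apart. Hepatocyte markers were present on both arrays and were lower with maslinic acid in 10 of 11 cases, with a median of -0.16 (-0.013 with quantile and -0.070 with loess scaling), Ttr at -0.23 and Alb at -0.21. The bile acid members, also hepatocyte genes, had a median of 0.03 on the same arrays. Their summed signal was 19421 with olive oil and 19235 with maslinic acid, while the hepatocyte markers summed to 103593 and 93740. The medians and sums are not matched for signal, and the markers include some of the brightest genes. Of the 50 brightest genes on the array 47 were lower with maslinic acid, with a median of -0.14. The part of signal strength in the marker values was not tested. Of 8 pericentral genes, of the zone around the central vein in which Cyp7a1 is known to be expressed, 7 were measured. All 7 were lower, from -0.45 (Cyp1a2) and -0.32 (Lect2) to -0.024 (Rgn), with a median of -0.14. Axin2 lay under the minimum signal, at 47.2 and 55 (log2 ratio 0.22) with its brighter probe set. Of all measured genes 48.0% were higher. The 4 measured periportal genes had a median of 0.0061 (-0.00040 with equal medians), Aldh1b1 at 0.32 and Hal at -0.09. The part of these shifts in the members' values was not tested.

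Markers of other liver cells differed by type. Of 9 stellate cell markers 6 were measured, all higher (median 0.24, Acta2 at 0.35, Lum at 0.34), summing to 2523 and 2835. The smallest of these was Reln, at 0.0047, and 48.0% of all measured genes were higher. Des, Col1a1 and Lrat lay under the minimum signal. Of 7 endothelial markers 6 were measured, all lower (median -0.14, Kdr at -0.49, Cdh5 at -0.32), summing to 2422 and 2180. The other, Pecam1, lay under the minimum at 53.5 and 61, a log2 ratio of 0.19. The dimmer Lyve1 probe set, also under it, had a log2 ratio of 0.11. Of 10 macrophage markers 6 were higher (median 0.05, C1qb at 0.43 but 0.096 without _x_at and _s_at probe sets, Marco at -2.00), summing to 10573 and 10572. Few others were measured: 0 of 6 cholangiocyte markers on the array, 2 of 9 lymphocyte markers (Ighm at 1.54 and 1.10 as the mean of its probe sets, Ptprc at -0.14), 1 of 4 intestinal (Fabp2 at -0.09) and 1 of 5 pancreatic (Cela1 at -0.54).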

How the data were processed

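Total liver RNA was labelled with biotin and hybridised to 1-colour Affymetrix arrays, 1 per diet, per the labels' protocols. The authors deposited 1 MAS5 intensity per probe set on a linear scale, per the submitters' processing notes. No MAS5 version was given in the sources used here. As deposited, the arrays had 2% trimmed means of 200.1 each. Each was multiplied by 2.50, to a trimmed mean of 500, with a floor of 100 (40.0 as deposited). A gene counted as measured where its brightest probe set reached 200 (80.0 as deposited) on an array. Printed signals are as deposited. Scanner files and detection calls were not used here, and the number of arrays limits the precision. Platform annotation named 1 gene for 20380 probe sets, controls aside. Alternatives changed the scaling, floor, minimum or choice of probe sets. Named genes were all members, up to 4 measured genes of each other bile acid list and up to 2 of each marker list by absolute log2 ratio, and Apoe. Members and lists were chosen with earlier results of these data known. No genes of like pattern are named, since 2 arrays give 1 difference. Calculations used Python 3.11.15, pandas 2.3.3 and statsmodels 0.14.6 and were tested on simulated data.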

Additional observations from a re-analysis of the deposited data

How the results depend on the processing

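With 1 array per diet no array could be left out, and no paired analysis was possible because the diets have 1 array each. Across 10 alternatives, 99 of 100 log2 ratios of the bile acid genes moved by less than the SD between probe sets of 1 gene (0.23). The other was Baat, at 0.38 without _x_at and _s_at probe sets. The floor and minimum settings could not move a member, since the brightest probe sets all lay above them. Leaving out the rescaling hardly could, as both trimmed means were 200.1. The choice of probe sets could move only members with several. The count of 99 is therefore no measure of stability. The sign turned for Cyp7a1 with the mean of all probe sets (0.12) and for Slc27a5 with quantile or loess scaling (up to 0.06). The count of bile acid genes at least 1.2-fold apart, 1 in the report, was 2 without those probe sets and 0 when probe sets were averaged, and the counts at 1.5-fold and 2-fold were 0 in all 10. The members' median ran from 0.023 to 0.052, and that of hepatocyte markers from -0.17 to -0.013. The sign of the median turned for the other pathway enzymes (up to 0.05), the regulators (up to 0.05) and the periportal genes (down to -0.00040). Without _x_at and _s_at probe sets Hsd17b4 turned to -0.13, C1qb moved to 0.096 and Ighm to 1.28, and the mean of Ighm probe sets was 1.10. Of all measured genes, 36 were at least 2-fold apart, and 19 with a floor of 200 or a minimum of 400. At 1.5-fold the count was 180, and 85 with a minimum of 400. With no minimum 12393 genes were counted in place of 5911. Background was judged only by the floor, which limits what can be said of dim probe sets such as Cyp7a1 1422100_at.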
